A study of Mus musculus with 6 samples.

Results

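The mRNA of 10 transcription factors that direct effector and exhausted CD8+ T cells was read in Teff from WT and *Scd-1*-/- mice. The genes were *Tbx21*, *Eomes*, *Prdm1*, *Zeb2*, *Id2*, *Runx3*, *Batf*, *Irf4*, *Bhlhe40* and *Tox*, picked by symbol from the 34745 genes in each library. No measured value enters that rule, but earlier results of these data were known when the genes were chosen. All 10 were found in all 6 libraries. The knockout mice were B6.129-Scd1tm1Ntam/J, which lack *Scd-1* in every tissue, and the WT mice were C57BL/6J. The knockout strain had been donated and the WT strain bought, so the 2 groups were not described as littermates. All mice were males 6 to 8 weeks old. In both groups, splenic CD8+ T cells, enriched by negative selection, received anti-CD3 (5 μg/mL), anti-CD28 (0.5 μg/mL) and IL-2 (100 U/mL) for 3 days. They were then held in IL-2 alone for 3 days and collected on day 6 as Teff. Each group held 3 libraries, numbered 1 to 3. The labels do not say whether the replicates came from separate mice or cultures, and the methods speak of independent experiments only in general, so the p-values measure the spread between these libraries, which may be technical.

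T-bet (*Tbx21*) and Eomesodermin (*Eomes*) are T-box factors that bind the same kind of DNA element and switch on genes for IFN-γ, granzymes and perforin. T-bet is linked to short-lived effector cells, whereas Eomesodermin is linked to memory and to exhausted cells. Blimp-1 (*Prdm1*) and Zeb2 are repressors that carry effector cells toward terminal differentiation. Id2 holds E proteins away from DNA, and Runx3 keeps the cytotoxic lineage and its residency genes. Batf, Irf4 and Bhlhe40 are induced by the T cell receptor, and Tox is the factor that installs the exhausted chromatin state under lasting antigen.

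The libraries held 14034479 to 15866216 counts in genes, where a gene at 0 may still have had as many as 3 (0.189 to 0.214 CPM, the count scaled to the library total) by counting error alone. *Scd1* had 3074 to 4272 counts in the WT libraries and 20 to 36 in the *Scd-1*-/- libraries, so the targeted gene went with the labels. Replicate 1 of each genotype stood apart from replicates 2 and 3. Across genes, the count difference between WT replicate 1 and *Scd-1*-/- replicate 1, as chi-square per degree of freedom, was 19.3, against 51.3 to 62.1 between replicate 1 and the other two libraries of its own genotype. Same-numbered libraries deviated together from their group means, most clearly for replicate 1 (r = 0.63). For replicate 2, r was 0.33, below the 0.44 between WT replicate 3 and *Scd-1*-/- replicate 2. The data therefore do not settle how replicates 2 and 3 pair. A fit with the replicate number as a block, which takes the numbers as pairs, is called the blocked fit. It is given for the factors and related genes described below wherever it changed a call. The 8 CD8 T cell markers summed to 4920 to 5224 CPM in WT and 4897 to 5012 in *Scd-1*-/- libraries, but most of them mark all T cells. The lineage genes *Cd8a* and *Cd8b1* had at least 3026 and 4228 counts in each library, so the labelled cell type was present. *Cd8a* was lower in all *Scd-1*-/- libraries, as given below. *Ms4a1*, *Pax5*, *Adgre1* and *Fcgr1*, which define B cells and macrophages, had 0 counts in all 6 libraries, whereas other genes of the same lists, such as *Cd79b*, *Cd68*, *Cd14* and *Itgam*, had counts and are given below.

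Promoter sequences of the T-box pair, *Prdm1* and *Irf4* were searched for motifs of these factors and for core promoter motifs. They are shown because *Eomes*, *Prdm1* and *Irf4* did not overlap between the genotypes and *Tbx21* is the close relative of *Eomes*. Their RefSeq windows lie outside the GENCODE exons of their own gene, but for 7 bases at the end of the *Irf4* window. The *Prdm1* window lies within the GENCODE span of its gene (44437177 to 44528501, minus strand) and not at its 5′ end. Each run is the 250 bases before the RefSeq start site on GRCm38.p6, 5′ to 3′ on the strand of the gene, and capitals mark motif matches on either strand.

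Eomes chr9:118477939-118478188 (plus strand): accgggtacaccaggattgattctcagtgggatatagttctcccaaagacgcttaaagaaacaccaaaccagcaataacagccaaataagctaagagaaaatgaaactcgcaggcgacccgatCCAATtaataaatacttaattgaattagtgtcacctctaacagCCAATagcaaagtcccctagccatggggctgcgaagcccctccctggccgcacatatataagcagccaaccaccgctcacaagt
Tbx21 chr11:97115332-97115581 (minus strand): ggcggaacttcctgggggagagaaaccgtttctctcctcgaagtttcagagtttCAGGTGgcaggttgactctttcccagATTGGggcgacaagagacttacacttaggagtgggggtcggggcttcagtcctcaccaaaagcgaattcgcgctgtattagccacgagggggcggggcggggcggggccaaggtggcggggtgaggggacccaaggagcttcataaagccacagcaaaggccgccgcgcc
Prdm1 chr10:44458749-44458998 (minus strand): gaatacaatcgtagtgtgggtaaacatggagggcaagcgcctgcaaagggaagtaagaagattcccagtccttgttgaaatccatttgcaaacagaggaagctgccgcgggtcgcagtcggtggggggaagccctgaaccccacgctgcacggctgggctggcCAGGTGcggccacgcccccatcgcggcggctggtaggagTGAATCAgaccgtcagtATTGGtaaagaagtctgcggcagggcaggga
Irf4 chr13:30748983-30749232 (plus strand): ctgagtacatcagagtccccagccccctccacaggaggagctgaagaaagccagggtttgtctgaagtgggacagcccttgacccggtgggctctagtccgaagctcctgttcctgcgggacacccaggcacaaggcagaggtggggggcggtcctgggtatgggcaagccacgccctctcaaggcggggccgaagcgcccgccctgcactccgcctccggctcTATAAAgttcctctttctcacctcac

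Of the 10 genes, 8 had an entry in RefSeq's promoter table, with 12 windows between them. *Tox* and *Bhlhe40* had none. The motifs searched on both strands were T-box (GGTGTGA), Zeb E-box (CAGGTG), Bhlhe40 E-box (CACGTG), RUNX (TGTGGT), AP-1 (TGANTCA), Blimp-1 core (AAGTGAAA), NFAT (GGAAAA), the TATA box (TATAAA) and the CCAAT box (CCAAT). No letters of one motif stand whole inside another. The *Eomes* window held CCAAT at 127 and 84 bases before the start, a motif found in 33.8% of the 32851 mouse windows of the same length. The *Tbx21* window held a Zeb E-box at 196 bases, which 17.2% of all windows hold, and CCAAT on the other strand at 170 bases. The *Prdm1* window held a Zeb E-box at 87 bases, CCAAT on the other strand at 31 bases and the AP-1 letters TGAATCA at 48 bases, and 6.75% of windows hold an AP-1 match. *Irf4* had TATAAA at 26 bases, as 12.4% of windows do somewhere. Elsewhere, the RUNX letters, present in 14% of windows, occurred in the *Runx3* window at 134 and 126 bases and in the *Batf* window at 149 and 56 bases, and *Id2* had CCAAT at 159, 120 and 76 bases. No T-box, Bhlhe40 E-box or Blimp-1 match was found in the 12 windows; these motifs occur in 3.33%, 6.02% and 1.36% of all windows. These matches are letters only, and binding was not measured.

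*Id2* was the most abundant of the 10 mRNAs and *Zeb2* the least in WT Teff. FPKM, the count scaled to gene length and library total, allows this comparison between genes. Mean WT FPKM was 110.4 ± 11.5 (SD, n = 3) for *Id2*, 67.1 ± 8.20 for *Bhlhe40*, 62.5 ± 7.13 for *Batf*, 45.4 ± 5.94 for *Irf4*, 28.2 ± 9.07 for *Tbx21*, 18.4 ± 1.93 for *Runx3*, 3.95 ± 0.297 for *Eomes*, 2.67 ± 0.913 for *Prdm1*, 0.591 ± 0.267 for *Tox* and 0.0801 ± 0.0311 for *Zeb2*. The ranges of *Bhlhe40* and *Batf*, of *Tbx21* and *Runx3* and of *Eomes* and *Prdm1* overlapped, so these neighbours did not separate. In *Scd-1*-/- Teff the order was the same but for *Tbx21*, whose mean stood above that of *Irf4*. There the ranges of *Bhlhe40* and *Batf* overlapped again, those of *Tbx21*, *Irf4* and *Runx3* ran into each other, and so did those of *Tox* and *Zeb2*. *Eomes* and *Prdm1* no longer overlapped. The WT mean of *Eomes* was above that of 33.1% of the 9627 genes tested, and its *Scd-1*-/- mean above that of 64.3%.

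**Figure D1:**
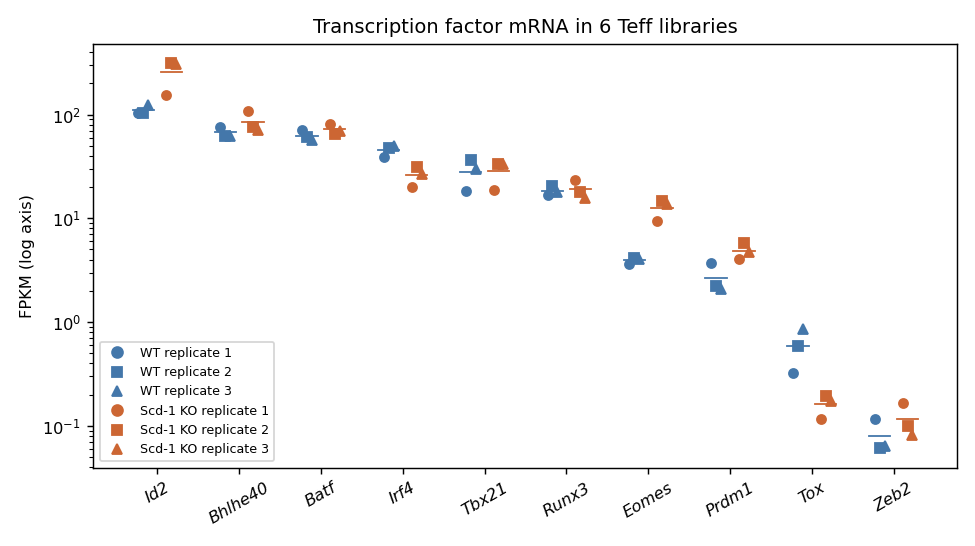
FPKM (log axis) of the 10 transcription factors in the 3 WT (blue) and 3 *Scd-1*-/- (orange) libraries, with circles for replicate 1, squares for replicate 2 and triangles for replicate 3 and a line at each group mean. The *Scd-1*-/- points lie above all WT points for *Id2*, *Eomes* and *Prdm1* and below them for *Irf4* and *Tox*, while the groups overlap for the other 5 genes.

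The genotypes were compared gene by gene with the quasi-likelihood F test of edgeR, fitted to counts without a block. Genes entered the fit if their FPKM averaged 1 or more over the 6 libraries, which 9627 did. *Tox* and *Zeb2* lay under that minimum and were read from the same test on all 17192 genes with a count. The study's thresholds were an unadjusted p under 0.001 together with a log2 fold change of size 1 or more. By these, *Eomes* was the 1 gene of the 10 that rose in *Scd-1*-/- Teff, and 0 fell. Over all genes tested, 0.738% passed, 0.499% higher and 0.239% lower (0.861%, 0.541% and 0.32% of all genes with a count). *Eomes* was also the only one of the 10 with a Benjamini-Hochberg adjusted p under 0.05, which 0.114% of the genes tested reached (0.489% of all genes with a count). In the blocked fit, *Eomes*, *Id2* and *Tox* passed the thresholds, where the share of all genes was 1.91% (1.81% of those with a count), and *Irf4* joined them at an adjusted p under 0.05, where the share was 4.7% (4.36%). The libraries of the genotypes did not overlap for 5 of the 10 genes, *Eomes*, *Id2* and *Prdm1* higher and *Irf4* and *Tox* lower in *Scd-1*-/- Teff, against 16% of the genes tested, 7.67% higher and 8.32% lower (13.6%, 6.31% and 7.33% of those with a count). In bulk RNA, a change in the share of cells that hold a transcript and a change in its amount per cell cannot be told apart.

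**Figure D2:**
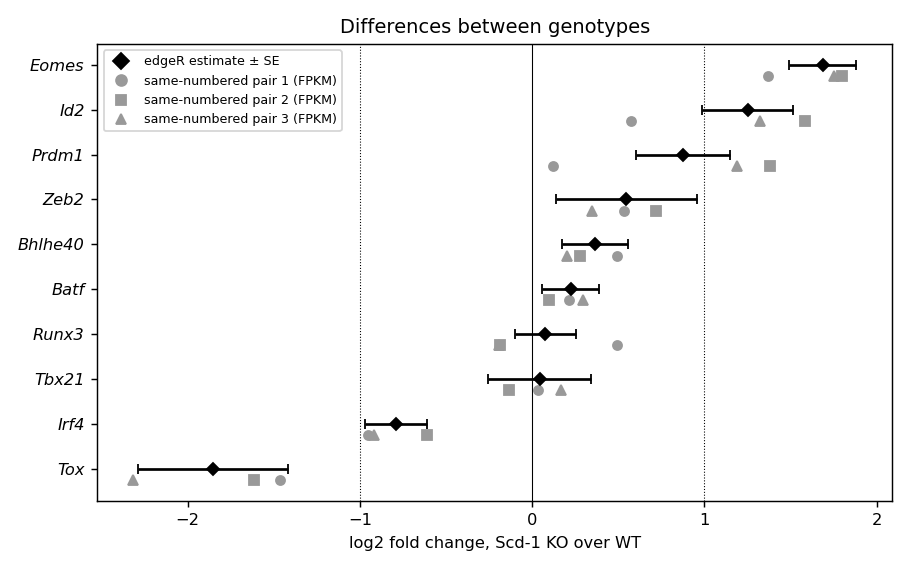
Log2 fold change of each transcription factor in *Scd-1*-/- over WT Teff, ordered by size. Black diamonds with bars are the edgeR estimate ± SE, grey symbols are the log2 FPKM differences of the same-numbered libraries, and dotted lines mark a size of 1. *Eomes*, at 1.69 ± 0.20, and *Tox*, at -1.85 ± 0.43, stand at the ends, and *Id2* and *Prdm1* have a replicate 1 pair far below the other pairs.

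*Eomes* rose, while the other T-box gene, *Tbx21*, had a mean of 28.2 FPKM in WT and 28.6 in *Scd-1*-/- Teff. *Eomes*, on chromosome 9 (118478212 to 118486132, plus strand, GRCm38), read 3.62, 4.18 and 4.07 FPKM in WT replicates 1, 2 and 3. In *Scd-1*-/- replicates 1, 2 and 3 it read 9.34, 14.5 and 13.7 FPKM. All *Scd-1*-/- libraries were above all WT libraries, and replicate 1 was the lowest of the *Scd-1*-/- group. The fold of the means was 3.17, and the log2 fold change was 1.69 ± 0.20 (SE; adjusted p = 0.0359, and 0.00195 in the blocked fit). It stayed past the thresholds without any one library (1.56 to 1.86). The adjusted p was under 0.05 without WT replicate 1 or *Scd-1*-/- replicate 1 and rose to as much as 0.273 without one of the other libraries.

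*Tbx21* (chromosome 11, 97098071 to 97115331, minus strand) read 18.4, 36.3 and 29.9 FPKM in the WT replicates. Its *Scd-1*-/- values were 18.9, 33.1 and 33.6 FPKM. Replicate 1 was low in both genotypes, at 0.557 times the mean of replicates 2 and 3 in WT and 0.566 times in *Scd-1*-/- Teff, and the groups overlapped throughout. A log2 fold change of 0.04 ± 0.30 resulted (adjusted p = 0.978), and its sign turned when WT replicate 1 was left out (-0.18), as it did without replicate 2 (-0.08) or 3 (-0.10) of the *Scd-1*-/- group.

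Within a library, the *Eomes* to *Tbx21* ratio needs no scaling between libraries. It was 0.196, 0.115 and 0.136 in the WT replicates. In the *Scd-1*-/- replicates it was 0.494, 0.439 and 0.407. The ratio was higher in each *Scd-1*-/- library than in any WT library, by 3.06-fold (a log2 difference of 1.62). The two-sided exact permutation test gave p = 0.1, the smallest that 3 against 3 can give, and 0.18 after adjustment over the 9 ratios computed.

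**Figure D3:**
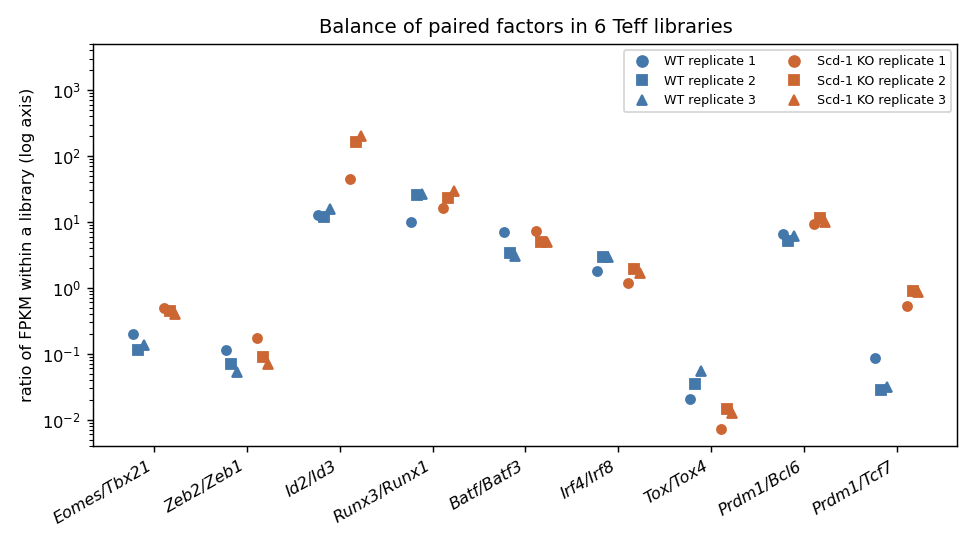
Ratio of the FPKM of 2 factors within each library (log axis), with WT in blue, *Scd-1*-/- in orange and symbols by replicate number. The *Scd-1*-/- libraries lie above all WT libraries for *Eomes*/*Tbx21*, *Id2*/*Id3*, *Prdm1*/*Bcl6* and *Prdm1*/*Tcf7* and below them for *Tox*/*Tox4*; the groups overlap for the other ratios.

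Among the repressors that carry effector cells toward terminal differentiation, *Prdm1* was higher in every *Scd-1*-/- library without passing the test, and *Zeb2* was barely present. *Prdm1* (chromosome 10, 44437177 to 44528501, minus strand), which encodes Blimp-1, read 3.72, 2.21 and 2.08 FPKM in the WT replicates, and 4.04, 5.77 and 4.75 FPKM in the *Scd-1*-/- replicates. The lowest *Scd-1*-/- library stood just above the highest WT library, and both were replicate 1. The log2 fold change was 0.87 ± 0.27 (adjusted p = 0.329, and 0.0769 in the blocked fit). WT replicate 1 decided the call: without it the log2 fold change was 1.21 and passed the thresholds (adjusted p = 0.0478), and with replicates 2 and 3 alone it was 1.33 (adjusted p = 0.00161).

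*Zeb2* (chromosome 2, 44983632 to 45117395, minus strand) had 60, 29 and 31 counts in the WT replicates, or 0.116, 0.0606 and 0.0639 FPKM. In the *Scd-1*-/- replicates it had 89, 48 and 44 counts, or 0.168, 0.0997 and 0.0813 FPKM. Replicate 1 was the highest in each genotype and the groups overlapped. *Zeb2* had a log2 fold change of 0.55 ± 0.41 (adjusted p = 0.755, over all genes with a count), which was 0.20 without *Scd-1*-/- replicate 1 and 0.92 without WT replicate 1. Exons of the antisense gene *Zeb2os*, which had 1 to 12 counts, cover 653 bases of its exons, and reads of the pair can be told apart only if strand was used in counting. The ratio of *Zeb2* to its paralog *Zeb1* overlapped between genotypes (log2 difference 0.43, exact permutation p = 0.5), while within same-numbered pairs it was higher in all 3 (by 0.59, 0.31 and 0.40, SD 0.14). Without *Scd-1*-/- replicate 1 the difference of this ratio was 0.05, and with a pseudocount of 1 it was -0.00158.

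Blimp-1 acts against *Bcl6* and *Tcf7*, which keep T cells in a memory or stem-like state. *Prdm1* over *Bcl6* was 6.58, 5.15 and 6.12 in WT replicates and 9.20, 11.4 and 10.03 in *Scd-1*-/- replicates, a log2 difference of 0.78, with *Bcl6* itself at only 36 to 64 counts. *Prdm1* over *Tcf7* was 0.0850, 0.0283 and 0.0315 in WT replicates. It was 0.538, 0.891 and 0.856 in *Scd-1*-/- replicates, a log2 difference of 4.13. Both ratios were higher in all *Scd-1*-/- libraries than in any WT library (exact permutation p = 0.1 each, 0.18 adjusted over the ratios). Most of the second difference lay in *Tcf7*, which fell by 3.24 on the log2 scale.

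*Id2* was higher in *Scd-1*-/- Teff and its paralog *Id3* lower. *Id2* (chromosome 12, 25093799 to 25097140, minus strand) encodes an inhibitor of E proteins and is a mark of effector cells, whereas *Id3* is a mark of memory precursors. *Id2* read 103, 104 and 124 FPKM in the WT replicates. The *Scd-1*-/- replicates read 154, 312 and 309.5 FPKM. All *Scd-1*-/- libraries were above all WT libraries, with *Scd-1*-/- replicate 1 at 0.495 times the mean of the other two. The log2 fold change was 1.25 ± 0.26, with an unadjusted p of 0.00163 and an adjusted p of 0.146 by edgeR, so it did not pass. In the blocked fit it was 1.19 and passed (adjusted p = 0.0171). Without *Scd-1*-/- replicate 1 it was 1.52 and passed as well (adjusted p = 0.00334).

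*Id3* read 8.08, 8.92 and 7.85 FPKM in the WT replicates. In the *Scd-1*-/- replicates it read 3.42, 1.92 and 1.54 FPKM, below every WT library. It passed the thresholds with a log2 fold change of -1.83 ± 0.32 (adjusted p = 0.0898, and 0.00936 in the blocked fit). Of the 6 fits that left out 1 library, where it ran from -2.24 to -1.61, it passed in the one without *Scd-1*-/- replicate 1. *Id2* over *Id3* was 12.8, 11.7 and 15.7 in WT replicates. It was 45.0, 163 and 201 in *Scd-1*-/- replicates, an 8.55-fold difference (exact permutation p = 0.1, 0.18 adjusted). *Id1* was near 0 and *Id4* had no count. Of the E proteins that Id2 holds off DNA, *Tcf3* and *Tcf12* were tested and 0 of 2 passed, each with a log2 fold change of -0.12 (SE 0.14 and 0.20), and *Tcf4* was below the FPKM minimum.

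*Runx3* (chromosome 4, 135120652 to 135177990, plus strand) showed no difference that the test could detect. It read 16.6, 20.5 and 18.0 FPKM in the WT replicates and 23.4, 18.0 and 15.8 FPKM in the *Scd-1*-/- replicates. The *Scd-1*-/- group spanned the WT group, with *Scd-1*-/- replicate 1 at the top. edgeR gave a log2 fold change of 0.08 ± 0.18 (adjusted p = 0.931). Its sign turned to -0.10 without *Scd-1*-/- replicate 1 and to -0.16 with replicates 2 and 3 alone. *Runx2* was 0.71 ± 0.27 and the shared partner *Cbfb* 0.23 ± 0.24 on the log2 fold change scale, and neither passed the thresholds. *Runx2* was higher in each same-numbered pair (by 0.52, 0.83 and 0.82), and its adjusted p went from 0.440 to 0.0225 in the blocked fit. *Runx3* over *Runx1* overlapped between genotypes (exact permutation p = 0.7).

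Of the factors induced by the T cell receptor, *Irf4* was lower in every *Scd-1*-/- library, and *Batf* and *Bhlhe40* overlapped. *Irf4* (chromosome 13, 30749226 to 30766976, plus strand), whose protein scales the clonal response with receptor signal, read 38.8, 47.3 and 50.3 FPKM in the WT replicates. Its *Scd-1*-/- values were 20.1, 30.9 and 26.6 FPKM. Replicate 1 was the lowest in each genotype, and the highest *Scd-1*-/- library was under the lowest WT library. The log2 fold change was -0.79 ± 0.18, with an unadjusted p of 0.00267 and an adjusted p of 0.177. In the blocked fit it was -0.80 with an adjusted p of 0.00912, past that threshold but under a size of 1. *Irf8*, a related factor, had a log2 fold change of -0.14 ± 0.16, and *Irf4* over *Irf8* overlapped between genotypes (log2 difference -0.68, exact permutation p = 0.2). Within same-numbered pairs the ratio was lower in all 3, by differences of -0.61, -0.62 and -0.80 (SD 0.11).

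*Batf* (chromosome 12, 85686669 to 85709087, plus strand), which pairs with Jun proteins and Irf4 on DNA, read 70.3, 60.6 and 56.5 FPKM in the WT replicates. In the *Scd-1*-/- replicates it read 81.6, 65.0 and 69.2 FPKM. Each *Scd-1*-/- library was above the WT library of its number, but the groups overlapped. With a log2 fold change of 0.22 ± 0.17, *Batf* did not pass (adjusted p = 0.729). It was 0.12 without *Scd-1*-/- replicate 1 and 0.34 without WT replicate 1. *Batf* over *Batf3* overlapped as well (log2 difference 0.45, exact permutation p = 0.3), with pair differences of 0.02, 0.59 and 0.74. The log2 difference of this ratio was 0.22 without WT replicate 3 and 0.84 without WT replicate 1.

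*Bhlhe40* (chromosome 6, 108660629 to 108666925, plus strand), a repressor that sustains effector metabolism and cytokines, read 76.6, 62.6 and 62.2 FPKM in the WT replicates. Its *Scd-1*-/- values were 108, 75.8 and 71.5 FPKM. Replicate 1 was the highest in each genotype and the groups overlapped. *Bhlhe40* did not pass, at a log2 fold change of 0.36 ± 0.19 (adjusted p = 0.585, and 0.0821 in the blocked fit). That value was 0.15 without *Scd-1*-/- replicate 1 and 0.49 without WT replicate 1. Its paralog *Bhlhe41* had 0 to 7 counts, so no ratio was computed. An antisense gene that shares 118 bases with its exons, *0610040F04Rik*, had 25 counts in *Scd-1*-/- replicate 1 and 0 to 5 in the other libraries.

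Of 13 AP-1, NFAT and Nr4a genes, 8 were tested and 0 passed in either direction. Their log2 fold changes lay on both sides of 0, with a median of 0.02 against -0.000506 over all genes tested. *Fosl2* had the largest difference of the 8 tested, 3.44, 4.43 and 4.05 FPKM in the WT against 8.12, 6.57 and 4.74 in the *Scd-1*-/- replicates (log2 fold change 0.73 ± 0.22, adjusted p = 0.291), and all *Scd-1*-/- libraries were above all WT libraries. The same held for *Nr4a3*, which was under the FPKM minimum (0.77 ± 0.24, adjusted p = 0.304, and 0.0503 in the blocked fit). *Fos*, also under the minimum, lay the other way, with all *Scd-1*-/- libraries below all WT libraries (-0.69 ± 0.35, adjusted p = 0.654). *Nr4a1*, an early receptor-induced gene, was at 24.7 and 26.6 FPKM in replicate 1 of WT and *Scd-1*-/- Teff but at 3.73 to 5.39 FPKM in the other libraries. Its libraries fell apart by replicate number and not by genotype (log2 fold change 0.02 ± 0.93).

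*Tox* was scarce in WT Teff and scarcer in *Scd-1*-/- Teff. The gene (chromosome 4, 6686353 to 6991557, minus strand) had 43, 73 and 107 counts in the WT replicates, or 0.323, 0.592 and 0.857 FPKM. In the *Scd-1*-/- replicates it had 16, 24 and 24 counts, or 0.117, 0.194 and 0.172 FPKM. All *Scd-1*-/- libraries were below all WT libraries, and replicate 1 was the lowest of each genotype. The log2 fold change was -1.85 ± 0.43, with an adjusted p of 0.127 over all genes with a count, so it did not pass. In the blocked fit it was -1.80 and passed (adjusted p = 0.00888), and without WT replicate 1 it was -2.13 and passed (adjusted p = 0.0219). With limma on log2(FPKM + 1), a scale that understates the change of low genes, it was -0.44 (adjusted p = 0.375). The paralog *Tox4* was at 13.4 to 17 FPKM and differed by -0.13 ± 0.13 (log2), *Tox2* had no more than 0.0303 FPKM and *Tox3* no count. *Tox* over *Tox4* was lower in all *Scd-1*-/- libraries (log2 difference -1.64, exact permutation p = 0.1, 0.18 adjusted), and the difference was -0.29 with a pseudocount of 1.

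Among receptor genes that Tox is known to sustain in exhausted cells, those that passed the thresholds were higher in *Scd-1*-/- Teff. Of 10 inhibitory receptor genes, all were tested, 3 rose and 0 fell, with a median log2 fold change of 0.58. Over all genes tested, 0.499% rose and 0.239% fell, and this list, like the other 6, was chosen with earlier results of these data known. *Pdcd1*, which encodes PD-1, read 32.4, 30.5 and 37.0 FPKM in the WT against 91.4, 151 and 148 in the *Scd-1*-/- replicates (log2 fold change 1.99 ± 0.21, adjusted p = 0.0259). *Havcr2*, which encodes TIM-3, rose from 1.79 to 4.44 FPKM in WT to 11.9 to 13.5 in *Scd-1*-/- libraries (2.18 ± 0.34, adjusted p = 0.0816, and 0.00673 in the blocked fit). *Cd244a*, a receptor gene of the SLAM family, was the third of them, with a log2 fold change of 2.07 ± 0.37 (adjusted p = 0.0921, and 0.0171 in the blocked fit). *Entpd1*, which encodes CD39, was 0.96 ± 0.16 and missed the size of 1 (adjusted p = 0.0847, and 0.0081 in the blocked fit). *Lag3*, at -0.42 ± 0.32, *Ctla4*, at 0.07 ± 0.12, and *Cd101*, at -0.98 ± 0.26, did not pass. For *Cd101*, all *Scd-1*-/- libraries were below all WT libraries (adjusted p = 0.255, and 0.0277 with replicates 2 and 3 alone). *Lag3* was lower within each same-numbered pair (log2 differences of -0.08, -0.69 and -0.81), and with replicates 2 and 3 alone its value was -0.71 (adjusted p = 0.00237), short of a size of 1. *Pdcd1* passed in all 6 fits that left out 1 library. *Havcr2* (1.93 to 2.68) did not pass without replicate 3 of either genotype, and *Cd244a* (1.81 to 2.60) passed only without replicate 1 of either.

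**Figure D4:**
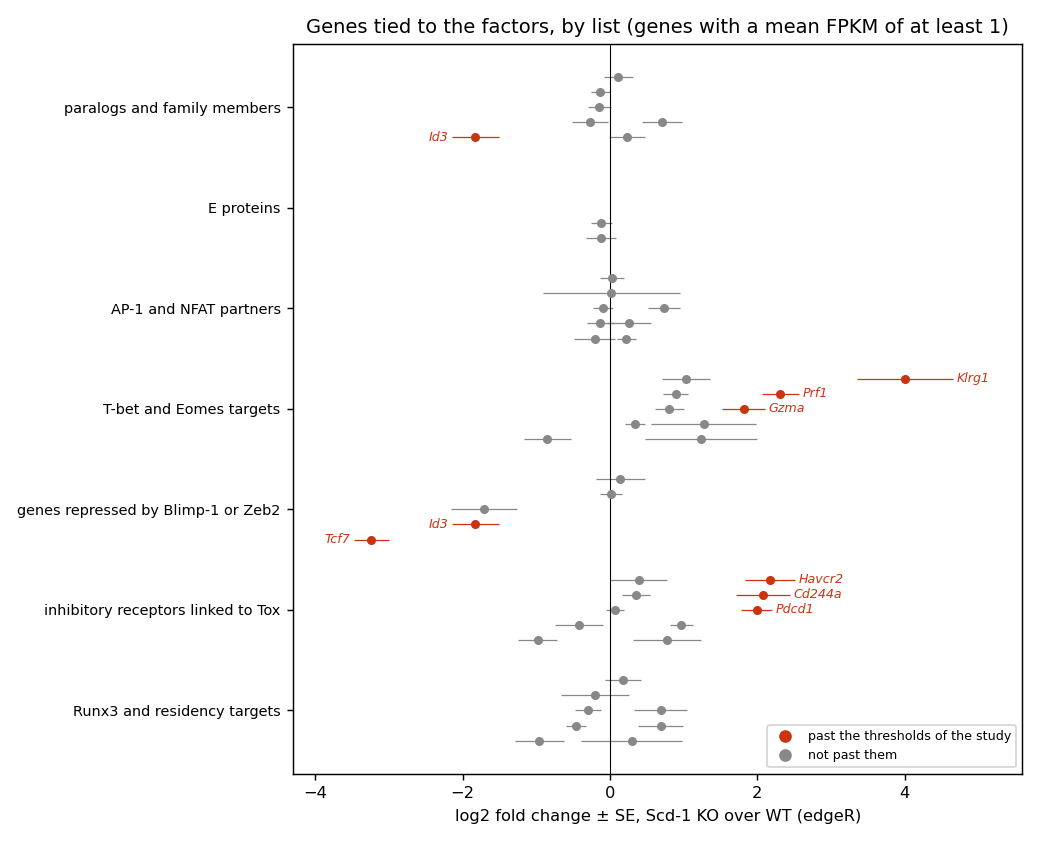
Log2 fold change ± SE (edgeR) of the tested genes in 7 lists tied to the 10 factors, with genes past the thresholds of the study in red. Red points lie to the right among T-bet and Eomes targets (*Prf1*, *Gzma*, *Klrg1*) and inhibitory receptors (*Pdcd1*, *Havcr2*, *Cd244a*), and to the left among genes repressed by Blimp-1 or Zeb2 (*Tcf7*, *Id3*), where *Id3* appears again as a paralog.

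Of 12 genes known as targets of T-bet and Eomesodermin, 10 were tested, 3 rose and 0 fell (0.499% and 0.239% of all genes tested). The median log2 fold change was 1.13, with 9 of the 10 above 0. *Prf1*, which encodes perforin, read 44.9, 23.8 and 30.6 FPKM in the WT against 143, 173 and 172 in the *Scd-1*-/- replicates (log2 fold change 2.31 ± 0.25, adjusted p = 0.0259). *Gzma* read 428, 451 and 237 FPKM in the WT against 956, 1310 and 1611 in the *Scd-1*-/- replicates (1.81 ± 0.29, adjusted p = 0.0847, and 0.0170 in the blocked fit). *Klrg1*, a receptor of terminal effector cells, rose from 0.151 to 0.979 FPKM in WT to 4.86 to 15.8 FPKM in *Scd-1*-/- libraries (4.0 ± 0.66, adjusted p = 0.0847, and 0.0108 in the blocked fit). *Prf1* passed with any 1 library left out. *Klrg1* (3.54 to 4.43) did not pass without replicate 3 of either genotype, nor did *Gzma* (1.56 to 1.99) without replicate 2 of either genotype or the last *Scd-1*-/- replicate.

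The block changed the calls of other targets. *Ifng* read 17.2, 3.13 and 2.68 FPKM in the WT against 30.9, 11.6 and 11.7 in the *Scd-1*-/- replicates. Replicate 1 was high in both genotypes, the groups overlapped, and the log2 fold change of 1.24 ± 0.76 did not pass, but the blocked value of 1.57 did (adjusted p = 0.0232). Leaving out 1 library at a time moved the value for *Ifng* between 0.60 and 2.67, and it passed in none of these fits. The chemokine gene *Ccl5* had the same arrangement, at 1.27 ± 0.71 without the block and 1.69 with it (adjusted p = 0.0182). Its range with 1 library left out was 0.79 to 2.65, and it passed there only without WT replicate 1 (adjusted p = 0.0346). *Gzmb*, at 0.89 ± 0.17, did not reach a size of 1 (adjusted p = 0.101, and 0.0208 in the blocked fit). *Cxcr3*, a chemokine receptor gene that T-bet is known to activate, lay on the other side. It read 112, 73.7 and 53.9 FPKM in the WT against 59.4, 36.0 and 36.3 in the *Scd-1*-/- replicates (-0.85 ± 0.32, adjusted p = 0.434, and 0.0174 in the blocked fit). Its groups overlapped, and with 1 library left out the value for *Cxcr3* ran from -1.13 to -0.50.

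Of 9 genes that Blimp-1 or Zeb2 are known to repress, 5 were tested, 0 rose and 2 fell (0.499% and 0.239% of all genes tested). The median of the 5 was -1.71, the value of *Ccr7*, with 3 genes below 0 and 2 above. *Tcf7*, which encodes TCF-1, read 43.8, 78.2 and 66.0 FPKM in the WT against 7.51, 6.47 and 5.55 in the *Scd-1*-/- replicates (log2 fold change -3.24 ± 0.24, adjusted p = 0.00434). *Tcf7* passed with any 1 library left out. The other was *Id3*, given above. *Ccr7*, a homing receptor gene, read 55.9, 207 and 204 FPKM in the WT against 35.8, 51.9 and 51.8 in the *Scd-1*-/- replicates. Its log2 fold change of -1.71 ± 0.45 did not pass, but the value with the block did (-1.53, adjusted p = 0.0190), as did those without WT replicate 1 and with replicates 2 and 3 alone (-1.95, adjusted p = 1.36e-05). *Il7r*, at 0.02 ± 0.15, and *Myb*, at 0.14 ± 0.34, did not pass. Under the FPKM minimum, *Cxcr5* was -1.59 ± 0.76 (adjusted p = 0.608, and 0.0423 in the blocked fit). With replicates 2 and 3 alone *Cxcr5* passed (-2.06, adjusted p = 0.00397), and its range with 1 library left out was -2.79 to -0.88. Also under the minimum, *Bach2* was -0.60 ± 0.29 and *Bcl6* 0.10 ± 0.34, and neither passed. The groups overlapped for each of these. *Il2* had no count.

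Of 10 genes tied to Runx3 and to tissue residency, 8 were tested and 0 passed, with a median of -0.02. *Itgae*, which encodes the CD103 integrin and was under the FPKM minimum, read 1.08, 1.88 and 1.09 FPKM in the WT against 0.110, 0.257 and 0.336 in the *Scd-1*-/- replicates. It passed in the fit to all genes with a count (log2 fold change -2.51 ± 0.46, adjusted p = 0.0485), but lost that call when replicate 2 of either genotype was left out (-2.87 to -2.14 over the fits that left out 1 library). Its adjusted p was under 0.05 in the 2 of those fits without replicate 1 of either genotype and reached 0.333 in the others. *Zfp683*, which encodes Hobit, was -0.96 ± 0.33, *Cd69* 0.69 ± 0.31, *Cxcr6* 0.69 ± 0.36 and *Cd8a* -0.46 ± 0.14, and none of these passed. All *Scd-1*-/- libraries were below all WT libraries for *Cd8a*, and *Cxcr6* passed without WT replicate 1 (1.28) and with replicates 2 and 3 alone (1.24, adjusted p = 0.00115). *Cd4*, which Runx3 is known to silence, had 8, 24 and 12 counts in the WT and 5, 2 and 1 in the *Scd-1*-/- replicates. Of the paralogs and family members, 7 of 14 were tested, 0 rose and *Id3* was the 1 that fell, with a median of -0.13.

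Over the 7 lists, which hold 70 different genes, 9 passed the thresholds, 6 higher and 3 lower in *Scd-1*-/- Teff, against 0.738% of the genes tested and 0.861% of those with a count. Of the 70, 17 came from the wider fit and 4 had no count. Natural killer cells also express *Eomes*, *Id2*, *Prf1* and *Klrg1*, and their markers moved with the genotype, although the negative selection of CD8+ T cells is meant to remove such cells. The 6 marker genes summed to 4.88 to 8.01 CPM in WT and 16.6 to 64.3 CPM in *Scd-1*-/- libraries. Of the 6, *Klrb1c*, *Tyrobp* and *Klra9* did not overlap between genotypes and were higher in *Scd-1*-/- Teff, while the defining receptor gene *Ncr1* had 0 to 5 counts and *Klra8* and *Klra4* no more than 2 counts. *Tyrobp* passed the thresholds (log2 fold change 3.23 ± 0.45, adjusted p = 0.0646, and 0.00250 in the blocked fit), though not without WT replicate 2, and *Klrb1c* passed in the blocked fit (2.88, adjusted p = 0.00591). The part of such cells in these results was not tested. Among the other lists, CD4 T cell markers summed to 56.4 to 92.1 CPM in WT and 68.1 to 86.8 in *Scd-1*-/- libraries, mostly *Zbtb7b*. *Cd4*, *Foxp3* and *Cd40lg* had no more than 24, 5 and 5 counts. In the same order, B cell markers summed to 20.0 to 22.9 and 6.59 to 16.8, nearly all *Cd79b* (adjusted p = 0.387, and 0.0434 in the blocked fit). Plasma cell markers summed to 2.53 to 3.14 and 2.18 to 4.61, and myeloid markers to 16.6 to 36.3 and 21.0 to 63.3, mostly *Cd68*. *Itgam* had 16, 0 and 5 counts in the WT and 83, 13 and 16 in the *Scd-1*-/- replicates (adjusted p = 0.524, and 0.0464 in the blocked fit). *Cd14*, a monocyte gene of the last list at 4 to 11 counts in WT and 28 to 42 in *Scd-1*-/- libraries, passed the thresholds in the fit to all genes with a count (2.41 ± 0.52, adjusted p = 0.0956, and 0.0287 in the blocked fit), and of the fits with 1 library left out in the 2 without replicate 1 of either genotype. Erythroid and platelet markers did not exceed 0.578 and 1.39 CPM.

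The genes whose pattern over the 6 libraries was most like that of each member past an adjusted p under 0.05, in either fit, were taken by Pearson's r of log2(CPM + 1) among 9619 other genes. The libraries share their genotype and replicate number, so these values describe likeness only. For *Eomes* they were *2810025M15Rik* (r = 0.998), *Pdcd1* (0.994) and *Vash1* (0.993). Those of *Id2* were *Gzme* (0.998), a granzyme gene, and the T cell receptor gamma genes *Tcrg-C4* (0.997) and *Trgv2* (0.996). Nearest to *Irf4* were the interferon-induced GTPase genes *Tgtp1* (0.988) and *Iigp1* (0.986), with *Pi4ka* (0.985). Beside *Tox* stood *Gorasp1* (0.994), *Nlrc3* (0.993) and *Cd74* (0.992), the invariant chain gene. Many genes came close: r was over 0.95 with *Eomes* for 80 genes, with *Id2* for 112, with *Irf4* for 36 and with *Tox* for 70.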

How the data were processed

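Count and FPKM tables of 6 Teff libraries were used. The authors deposited raw counts per gene, whole numbers without normalization, and an FPKM per gene. The submitters' processing notes name HISAT2, StringTie 1.3.0 and GRCm38. The ratio of count to FPKM differed between libraries only by total counts, so the deposited FPKM carries no TMM factor. The methods name a stranded total RNA kit and the labels another kit with poly(A) RNA, so whether counting used strand is unknown.

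The members and gene lists were chosen with earlier results of these data known. edgeR 4.0.16 (R 4.3.3) was run on the counts with TMM factors (0.986 to 1.03) and genotype as the only term, with Benjamini-Hochberg adjustment over all genes tested. SE is the size of the log2 fold change divided by the square root of F. Ratios of FPKM were compared by two-sided exact permutation tests. Same-numbered libraries' deviations from group means correlated at r = 0.63, 0.33 and 0.51 for replicates 1, 2 and 3 across 9627 genes, so the numbers were taken to pair the libraries. Crossed, WT replicate 3 with *Scd-1*-/- replicate 2 had r = 0.44, and WT replicate 2 with *Scd-1*-/- replicate 3 had 0.19. How replicates 2 and 3 pair is thus not settled by the data. What a number stands for is not given in the sources used here. No 2 libraries agreed within sampling noise (smallest chi-square per degree of freedom, 12.2).

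Named genes are the 10 members and, in 7 lists (paralogs, E proteins, AP-1 and NFAT partners, T-bet and Eomes targets, genes repressed by Blimp-1 or Zeb2, inhibitory receptors, Runx3 and residency targets), those past a threshold and up to 4 others with large changes. Some named to complete a family fall outside this rule and were chosen after their values were seen. A related gene and a marker gene are not reported here and were left out of the counts. *Cd244a* was matched by its older symbol. Positions are from GENCODE M21, which matched 34344 of 34745 identifiers (98.85%). Alternatives were other FPKM minimums, filterByExpr, RLE scaling, DESeq2 1.42.0, limma 3.58.1 on log2(FPKM + 1) or log2(FPKM + 0.1), the replicate block, replicates 2 and 3 alone and each library left out. The fits were tested on simulated counts drawn without a replicate effect, which cannot show how they handle the replicate 1 difference seen here.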

Additional observations from a re-analysis of the deposited data

How the results depend on the processing

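Of 150 member fold changes under alternatives, 134 kept their direction and their side of the thresholds, 11 came to pass them, 5 reversed and 0 were lost. The reversed ones were *Tbx21* (-0.18, -0.08 and -0.10, in a range of -0.18 to 0.27 without one library) and *Runx3* (-0.10, in a range of -0.10 to 0.19, and -0.16 with replicates 2 and 3 only). With the replicate block, the members past the thresholds went from 1 to 3 and those with an adjusted p under 0.05 from 1 to 4; the block changed the call of no member other than *Id2*, *Tox* and *Irf4*. The corresponding counts were 3 and 4 with DESeq2, where *Id2* and *Tox* joined *Eomes* past the thresholds, 4 and 5 with replicates 2 and 3 only, and 1 to 3 and 0 to 3 without one library. With no FPKM minimum, 2 members passed the thresholds. Related genes past the thresholds went from 9 to 20 with replicates 2 and 3 only and 4 to 13 without one library. Those with an adjusted p under 0.05 went from 4 to 11 with no minimum, 13 with DESeq2, 18 with the replicate block, 33 with replicates 2 and 3 only and 0 to 13 without one library. Over all genes, 71 passed the thresholds, against 148 with no minimum, 43 with a minimum of 5, 161 with DESeq2, 184 with the replicate block, 369 with replicates 2 and 3 only and 25 to 163 without one library. An adjusted p under 0.05 was reached by 11, against 84, 18, 266, 452, 1213 and 2 to 182 in the same order, and by 17 with limma on log2(FPKM + 1). Of the fits without one library, only those without WT or *Scd-1*-/- replicate 1 passed more genes than the full set (143 and 163). With a pseudocount of 1, the log2 difference of *Tox* over *Tox4* was -0.29. Without one library, a group of 2 was tested with the spread pooled over all libraries. *Tox* and *Zeb2*, at 16 to 107 counts, had the fewest counts of the members.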
